A study of Homo sapiens with 2 samples.

Results

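The CDH11-expressing cells were the cell barcodes of MDA-MB-231 mammospheres that held at least 1000 UMIs (unique molecular identifiers, random tags by which each captured transcript is counted once) and at least 1 UMI of CDH11. There were 131 of them among 1744 barcodes with at least 1000 UMIs, out of 2000 barcodes deposited. Of these, 123 of 800 came from the 2 mM metformin library and 8 of 944 from the 0 mM library. MDA-MB-231 is an established human cell line from a triple-negative breast cancer, with a mesenchymal phenotype. Cells of the first group had been adapted for 30 days in flat high-glucose culture to 2 mM metformin, a biguanide used against type 2 diabetes, and those of the second to the same medium with 0 mM metformin. Both then grew for 10 days as mammospheres, floating spheres on low-attachment plates, in a culture medium for which the labels name no metformin dose. Each dose had 1 library of 1 cell line, so no difference between doses has a replicate, and cells of 1 library are not replicates of a condition. The main comparison was therefore made inside the 2 mM library, between CDH11-positive barcodes and CDH11-negative barcodes of the same depth.

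CDH11 encodes cadherin-11, also called OB-cadherin, a type II classical cadherin. Its outer part binds cadherin-11 on neighbouring cells, and its tail binds p120-catenin and beta-catenin, which connects to actin through alpha-catenin. It is known from osteoblasts and other mesenchymal cells, and it occurs in mesenchymal-like breast cancer lines, where E-cadherin is often absent.

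CDH11 chose the members, so its own values are given as a description. In the 2 mM library CDH11 had 171 UMIs, a level of 54.8 CPM (UMIs of the gene scaled to a common library total; exact Poisson interval 46.9 to 63.7), and in the 0 mM library 22 UMIs, or 5.06 CPM (3.17 to 7.65). The share of barcodes with CDH11 was 15.4% (exact binomial interval 12.9% to 18.1%) at 2 mM and 0.847% (0.367% to 1.66%) at 0 mM. These intervals, at a level of 95%, cover counting error only, so variation from culture to culture or from one library preparation to the next is outside them. Within the 2 mM library most members sat at the threshold itself. Of the 123 barcodes, 90 had 1 UMI of CDH11, 25 had 2, 4 had 3, 1 had 4 and 3 had 5, against 677 barcodes with 0. A barcode with 0 CDH11 UMIs is therefore not shown to lack the transcript. The libraries held no cell type that should lack CDH11, so a level of free RNA could not be measured.

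The members at 0 mM were few, and 5 of the 8 had 2 or more CDH11 UMIs. Their CDH11 counts were 5, 4, 4, 4, 2, 1, 1 and 1 UMIs, in barcodes of 6278, 6404, 8628, 17892, 18794, 3716, 3847 and 10492 UMIs in the same order. Members averaged 1.39 CDH11 UMIs per barcode at 2 mM and 2.75 at 0 mM. Scaled to the UMIs of the members, the CDH11 levels were close, at 271 CPM and 289 CPM. The 2 mM members had a median of 4262 UMIs in all and the 0 mM members, which were deeper, 7516.

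At 2 mM detection followed depth, while the level did not. The share of barcodes with CDH11 was 8.96% at 1000 to under 2000 UMIs, 13.1% at 2000 to under 4000, 20.6% at 4000 to under 8000 and 29.2% at 8000 or more. The CDH11 level in the same classes was 60.6, 54.1, 52.5 and 57.0 CPM. At 0 mM the corresponding counts were 0 of 243 barcodes, which allows a share of up to 1.23%, then 2 of 278, 2 of 303 and 4 of 120. The 0 mM level went up with depth, from 0 UMIs in the shallowest class, which allows up to 8.90 CPM, to 2.42, 5.18 and 7.59 CPM (3.79 to 13.6 in the last), with intervals that overlap. Thinned at random to 1000 UMIs each, 4.63% of 2 mM barcodes and 0.106% of 0 mM barcodes kept a CDH11 UMI. The shallowest member at 2 mM held 1142 UMIs. Below the 1000-UMI threshold, 10 of 194 barcodes of at least 500 UMIs at 2 mM carried CDH11, and 0 of 56 at 0 mM.

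**Figure D1:**
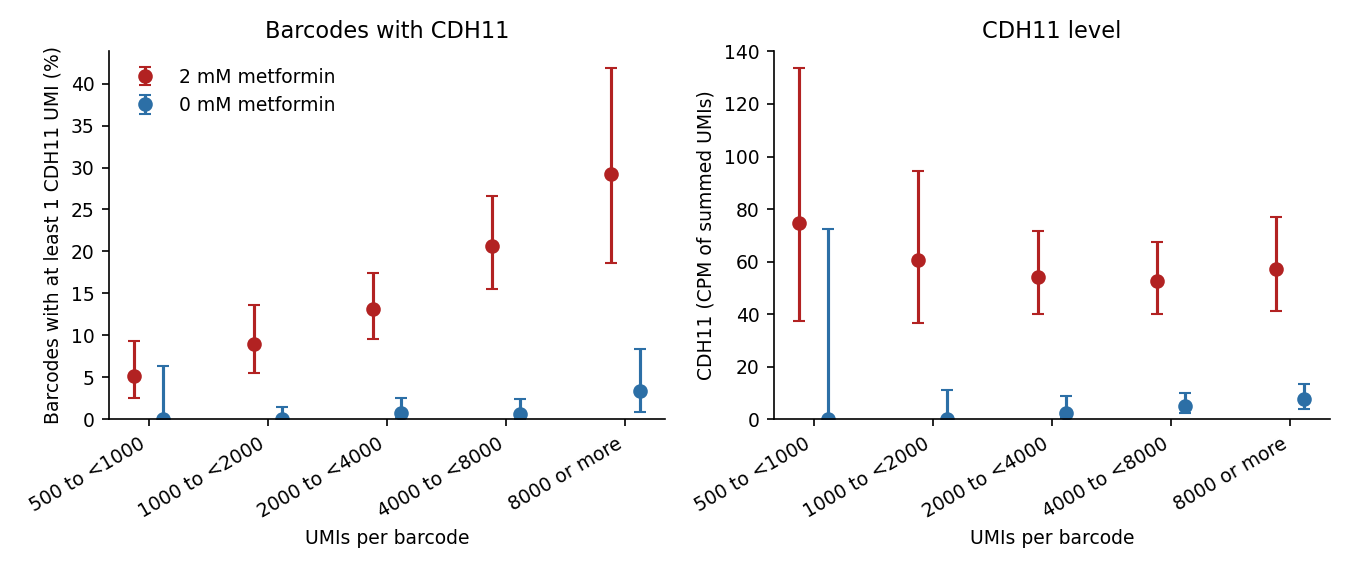
Share of barcodes with at least 1 CDH11 UMI (left, percent) and CDH11 level (right, CPM of summed UMIs) by UMIs per barcode, with 95% exact binomial and Poisson intervals, for the 2 mM (red) and 0 mM (blue) libraries. At 2 mM the share runs up to 29.2% in the deepest class while the level stays between 52.5 and 74.7 CPM.

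To compare like with like, each CDH11-positive 2 mM barcode was matched with 3 CDH11-negative barcodes of the nearest UMI count, 369 in all. The positive barcodes held 630348 UMIs in total (median 4262 per barcode and 2097 genes), and the matched negative barcodes 1744851 (median 4179 and 2051 genes). Mitochondrially encoded transcripts took 5.08% of UMIs in positive and 5.10% in matched negative barcodes, and ribosomal protein transcripts 10.2% and 9.85%. No barcode sequence occurred in both libraries. Among the 2 mM members, 10 barcodes lay 1 base from another deposited barcode, and merging such barcodes again gave 123 members. Markers of other cell types were scarce in both groups. Of 8 leukocyte markers 4 were in the table, with 3 UMIs in positive and 54 in matched negative barcodes (4.76 and 30.9 CPM). CD14 had 3 and 28 of these, CD68 0 and 23, LYZ 0 and 2, and PTPRC 0 and 1. The part of these transcripts in the results was not tested. Of 8 fibroblast markers, all in the table, 6 were detected, with 8 and 13 UMIs; 6 of these 8 were DCN transcripts in 1 barcode, and PDGFRA and COL3A1 were at 0 in both. Of 6 endothelial markers only KDR was in the table, at 1 and 5 UMIs.

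The markers of this mesenchymal line were present in CDH11-positive cells within 1.5-fold of their matched negatives wherever they could be compared. VIM, which encodes vimentin, had 1552 and 1632 CPM in positive and matched negative barcodes. FN1, which encodes fibronectin, had 544 and 459 CPM, and the hyaluronan receptor gene CD44 had 241 and 258 CPM. ZEB1, a repressor of epithelial genes, had 58.7 and 64.2 CPM. SPARC, the fifth of these markers, had 0 and 2 UMIs. CDH11, the single marker given for these cells, is the gene that chose them, so the name rests on it alone.

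No other cadherin reached a level at which the groups could be compared, and the catenin genes that could be compared differed little. Of 14 other cadherins and protocadherins, 9 were in the table and none reached the minimum for comparison, set at 100 CPM in either group and 100 UMIs over both. CDH1, the gene of E-cadherin, had 0 UMIs in both groups. The protocadherin-related gene FAT1 had 18 and 39 UMIs (28.6 and 22.4 CPM), CDH4 had 6 and 8 UMIs, PCDH7 3 and 20, PCDH1 0 and 8, CDH3 2 and 1, PCDHGC3 1 and 0, and CDH13 and CDH24 each 0 and 1. The ratio intervals of all those with UMIs included 1, with 0.688 to 2.29 for FAT1. At these counts a difference in another cadherin was neither shown nor excluded.

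Of 16 catenin and junction genes 13 were detected and 5 could be compared, all within 1.5-fold. CTNNB1, the gene of beta-catenin, had 287 CPM in positive and 259 CPM in matched negative barcodes, a ratio of 1.11 (exact interval 0.928 to 1.32). CTNNA1, which encodes alpha-catenin, had 373 and 354 CPM, a ratio of 1.05 (0.902 to 1.23). The ratio was 1.14 for the afadin gene MLLT4, 1.09 for VCL, which encodes vinculin, and 0.903 for the alpha-catenin-like gene CTNNAL1. All 5 intervals included 1. Below the minimum, the p120-catenin gene CTNND1 had 69.8 and 52.2 CPM and the tight junction gene TJP1 71.4 and 51.6 CPM, both with intervals that included 1.

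Across the transcriptome, positive and matched negative barcodes were close. Among 2188 genes that could be compared, 72 (3.29%) had at least 1.5 times the level in CDH11-positive barcodes and 73 (3.34%) were lower by the same factor, and 93.4% lay within 1.5-fold. Ratios above 1 were found for 1147 of the 2188. A factor of 2 or more was reached by 11 on the higher and 14 on the lower side. Over all genes compared the median log2 ratio was 0.02 and its SD over genes 0.33. Scaling by TMM, which moved the log2 ratios by less than 0.1, gave 56 higher and 86 lower genes. With 1 library, no test was run and none of these counts has an error rate. Ratio intervals treat each UMI as a separate draw and leave out the spread between cells.

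**Figure D2:**
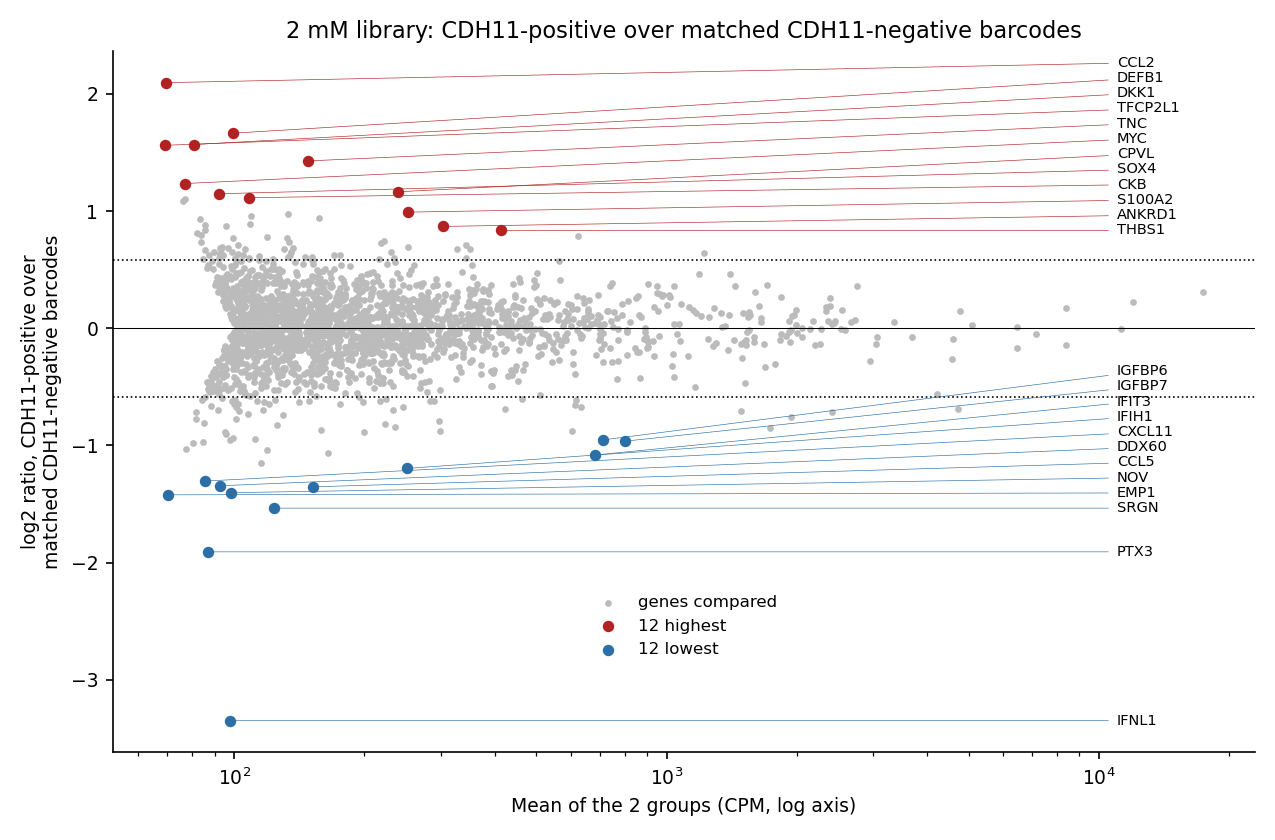
Log2 ratio of CDH11-positive over matched CDH11-negative 2 mM barcodes against the mean of both groups in CPM (log axis) for the 2188 genes compared, with dotted lines at 1.5-fold. The 12 genes highest (red) and the 12 lowest (blue), ranked by the interval bound nearest 1, are named; CCL2 lies at 2.10 and IFNL1 at -3.35.

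The 12 highest genes held secreted defence and matrix genes and transcription factors. DEFB1, which encodes an antimicrobial beta-defensin, had 151 CPM in positive barcodes, 47.6 CPM in matched negative barcodes and 2.76 CPM in the 0 mM library. Its ratio between the first and second was 3.17 (2.34 to 4.31), and it was detected in 35.0% of positive and 12.5% of matched negative barcodes. CCL2, a chemokine that attracts monocytes, had 113, 26.4 and 9.19 CPM in the same groups, a ratio of 4.27 (2.91 to 6.33), and was detected in 15.4% and 4.34% of barcodes. Both genes were thus lowest at 0 mM, intermediate in CDH11-negative and highest in CDH11-positive 2 mM barcodes.

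Among matrix genes, TNC, which encodes tenascin-C, had 216, 80.2 and 45.3 CPM in positive, matched negative and 0 mM barcodes. Its ratio was 2.69 (2.11 to 3.43), with detection in 56.9% of positive and 25.5% of matched negative barcodes. THBS1, which encodes thrombospondin-1, had 532, 298 and 160 CPM and a ratio of 1.78 (1.55 to 2.05). These transcripts were spread over many barcodes, with at most 11 of 136 TNC UMIs and 25 of 335 THBS1 UMIs in 1 positive barcode.

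Among transcription factors, TFCP2L1 had 103, 35.0 and 3.91 CPM, a ratio of 2.95 (2.05 to 4.26). SOX4 had 127, 57.3 and 9.42 CPM, a ratio of 2.22 (1.63 to 3.0), and was found in 35.8% and 15.7% of barcodes. MYC had 108, 45.8 and 65.7 CPM, a ratio of 2.35 (1.68 to 3.29), with 22 of its 68 positive-group UMIs in 1 barcode. CPVL, a serine carboxypeptidase gene, had 330, 147 and 39.1 CPM, a ratio of 2.24 (1.86 to 2.70), and was found in 64.2% of positive and 32.8% of matched negative barcodes. The creatine kinase gene CKB (148, 68.2 and 84.8 CPM) and ANKRD1, a known target of YAP and TAZ (394, 215 and 164 CPM), had ratios of 2.16 (1.63 to 2.86) and 1.83 (1.55 to 2.15). With 1 matched barcode per member in place of 3, the log2 ratio of ANKRD1 was 0.39, under 1.5-fold.

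The sums of DKK1 and S100A2 lay in good part in single barcodes. DKK1, a secreted Wnt inhibitor, had 121, 40.7 and 111 CPM and a ratio of 2.96 (2.12 to 4.16), but 30 of its 76 positive-group UMIs lay in 1 barcode. It was detected in 8.94% of positive and 9.76% of matched negative barcodes, so the share of cells with the transcript did not go with its summed level. S100A2, a calcium-binding protein gene, had 335, 168 and 324 CPM and a ratio of 1.99 (1.66 to 2.38), with 83 of 211 UMIs in 1 barcode. Without that barcode, and without the highest matched negative one, its log2 ratio was 0.43, under 1.5-fold.

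**Figure D3:**
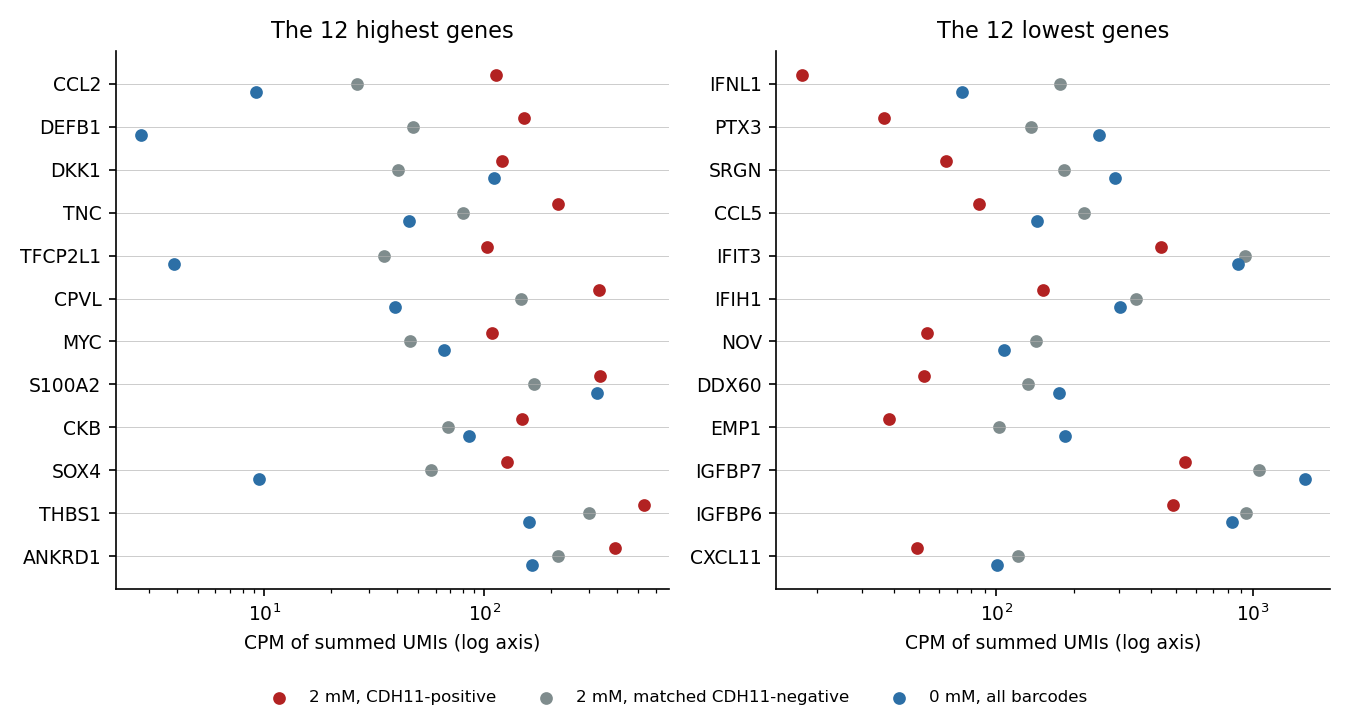
CPM of summed UMIs (log axis) of the 12 highest and 12 lowest genes in CDH11-positive 2 mM barcodes (red), matched CDH11-negative 2 mM barcodes (grey) and all 0 mM barcodes (blue). DEFB1, with 151, 47.6 and 2.76 CPM, is highest in the CDH11-positive group and lowest at 0 mM, while IGFBP7, with 543, 1059 and 1587 CPM, runs the other way.

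The 12 lowest genes held interferon and interferon-induced genes on one side and secreted or matrix proteins on the other. IFNL1, a type III interferon gene, had 17.5 CPM in positive barcodes, 178 CPM in matched negative barcodes and 73.5 CPM at 0 mM. All 11 of its positive-group UMIs were in 1 barcode, against 16 barcodes with IFNL1 in the matched group, so its ratio of 0.0982 (0.0485 to 0.178) rests on few cells. With 1 matched barcode per member its direction turned, to a log2 ratio of 0.85. IFIT3, an interferon-induced antiviral gene, had 438, 927 and 877 CPM, a ratio of 0.472 (0.414 to 0.537). IFIH1, which encodes the RNA sensor MDA5, had 152, 349 and 304 CPM, a ratio of 0.436 (0.348 to 0.542). The helicase gene DDX60 had 52.4, 133 and 176 CPM. The chemokine genes CCL5 (85.7, 219 and 143 CPM) and CXCL11 (49.2, 122 and 100 CPM) had ratios of 0.391 and 0.405. With 3 matched barcodes per member, the CDH11-positive group lay below both other groups in all 6 of these genes.

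The promoters of IFIT3 and IFIH1 are shown because both are interferon-induced and among the 12 lowest genes. Both sequences are from the RefSeq promoter table of build GRCh38.p14, 250 bases before to 50 after the gene start, read 5′ to 3′ on the gene's strand. The capitals mark GAAA, any 2 letters and GAAA again, read on either strand (TTTC on the other strand), the core of the known interferon-stimulated response element, with overlapping matches joined.
IFIT3 (chr10:89327747-89328046, + strand): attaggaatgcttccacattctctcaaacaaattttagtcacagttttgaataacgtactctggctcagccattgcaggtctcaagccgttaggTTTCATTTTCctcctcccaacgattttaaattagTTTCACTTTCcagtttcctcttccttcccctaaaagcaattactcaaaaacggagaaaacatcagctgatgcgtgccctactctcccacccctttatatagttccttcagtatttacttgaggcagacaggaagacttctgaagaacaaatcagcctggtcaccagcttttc
IFIH1 (chr2:162318635-162318934, - strand): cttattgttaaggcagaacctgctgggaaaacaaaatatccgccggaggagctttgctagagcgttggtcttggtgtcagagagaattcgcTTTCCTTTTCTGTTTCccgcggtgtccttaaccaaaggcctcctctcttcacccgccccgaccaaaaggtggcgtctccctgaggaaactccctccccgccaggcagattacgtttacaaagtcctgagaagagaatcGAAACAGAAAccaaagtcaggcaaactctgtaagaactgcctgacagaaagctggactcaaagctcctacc
The motif occurred 2 times in the first window and 3 times in the second. It was found in a promoter of 4 of the 8 lowest genes that the table holds (IFNL1, IFIT3, IFIH1 and DDX60), in 0 of 9 of the highest genes, and in 1195 of all 27305 genes of the table (4.38%). Such a match is a description of letters and not of a bound site.

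Of the other low genes, PTX3, a soluble pattern recognition protein gene, had 36.5, 137 and 252 CPM, a ratio of 0.266 (0.166 to 0.409), and was found in 9.76% of positive and 22.2% of matched negative barcodes. SRGN, the gene of the secretory granule proteoglycan serglycin, had 63.5, 184 and 290 CPM, a ratio of 0.345 (0.242 to 0.480). EMP1, a membrane protein gene, had 38.1, 102 and 185 CPM, and NOV, a matricellular protein gene, 54.0, 143 and 107 CPM. The insulin-like growth factor binding genes IGFBP7 (543, 1059 and 1587 CPM) and IGFBP6 (486, 940 and 824 CPM) had ratios of 0.513 and 0.517. Of the 306 positive-group UMIs of IGFBP6, 119 were in 1 barcode.

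Members with more CDH11 were set beside those with 1 UMI. The 33 barcodes with 2 or more CDH11 UMIs (median 5710 UMIs in all) and the 90 with 1 (median 3357.5) lay on the same side of the matched negatives for 11 of the 12 highest and 12 of the 12 lowest genes. CCL2 had 178 CPM with 2 or more, 76.5 CPM with 1 and 26.4 CPM in matched negative barcodes, and TNC had 267, 187 and 80.2 CPM. DEFB1 had 111, 173 and 47.6 CPM, so its level did not go up with the CDH11 count. DKK1 was the exception, with 22.2, 175 and 40.7 CPM. The genes were picked on the sum of these 2 sets, so this shows how the ratios are spread and is no separate support for them.

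Interferon-stimulated genes were lower as a group in CDH11-positive barcodes. Of 20 compared, 2 had ratios above 1, 9 were at least 1.5-fold lower against the 3.34% of all genes, and the median log2 ratio was -0.54. It was -1.26 without the deepest 5% of barcodes and -0.27 for members with 2 or more CDH11 UMIs. The list took 7304 CPM in positive barcodes, 10580 CPM in matched negative barcodes and 10753 CPM at 0 mM. Per barcode its median share of UMIs was 0.356% (lower to upper quartile 0.274% to 0.485%) in positive and 0.445% (0.288% to 1.08%) in matched negative barcodes, so the groups overlapped and the matched group reached further up. IFI27, known to be induced by type I interferon, went the other way at 411 and 303 CPM (ratio 1.36), as did LGALS3BP at 1.05.

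Most class I antigen presentation genes had ratios below 1. HLA-B had 3615 CPM in positive and 5841 CPM in matched negative barcodes, a ratio of 0.619 (0.591 to 0.648). HLA-C had 1444 and 2440 CPM (0.592), HLA-E 411 and 609 CPM (0.675), and B2M, the shared light chain, 6106 and 6848 CPM (0.892). Of 12 genes of this list 10 had ratios below 1, 2 were at least 1.5-fold lower against the 3.34% of all genes, and the median was -0.38. The 2 above 1 were chaperones of the endoplasmic reticulum that load class I molecules, CALR at 1.23 and PDIA3 at 1.49. Class II genes went both ways (median -0.01, 7 genes), from HLA-DRB1 at 0.655 to HLA-DMB at 1.37. Counts of HLA genes are uncertain, since their sequences are alike.

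Inflammatory genes other than interferon targets also went both ways. Of 15 genes in the list of NF-kB, acute phase and chemokine genes, 3 passed 1.5-fold on the higher and 2 on the lower side (median -0.04), against 3.29% and 3.34% of all genes. Beside CCL2, the neutrophil-attracting chemokine gene CXCL1 had 789 and 456 CPM, a ratio of 1.73 (1.54 to 1.94), but 133 of its 497 positive-group UMIs were in 1 barcode. The cytokine gene IL32 had 111 and 73.4 CPM. Without the barcode richest in the gene in each group, the log2 ratios of CXCL1 and IL32 were 0.45 and 0.26, under 1.5-fold. Lower were SOD2, the mitochondrial superoxide dismutase gene (324 and 523 CPM), the apoptosis inhibitor gene BIRC3 (368 and 560 CPM) and IL6 (85.7 and 126 CPM), the last with a ratio of 0.680 that did not reach 1.5-fold. BIRC3 had 159 of its 977 matched-group UMIs in 1 barcode, and without the richest barcode of each group its log2 ratio was -0.55, also under 1.5-fold.

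Cell cycle genes leaned the other way. Of 26 G2/M genes, 24 had ratios above 1 and 3 were at least 1.5-fold higher against the 3.29% of all genes, with a median log2 ratio of 0.36. CDC20, an activator of the anaphase-promoting complex, had 176 CPM in positive, 89.4 CPM in matched negative and 161 CPM in 0 mM barcodes, a ratio of 1.97 (1.53 to 2.53). The mitotic cyclin gene CCNB2 (125 and 73.4 CPM) and the kinetochore gene NUF2 (113 and 72.8 CPM) had ratios of 1.71 and 1.55. All 12 S-phase genes had ratios above 1 (median 0.21), led by the replication checkpoint gene CLSPN at 1.55 and the ribonucleotide reductase gene RRM1 at 1.48. Of the 78 positive-group UMIs of CLSPN 20 were in 1 barcode, and without the richest barcode of each group its log2 ratio was 0.32, under 1.5-fold, and that of NUF2 0.56.

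The G2/M transcripts were also counted barcode by barcode at equal depth. Thinned to 1000 UMIs, 63.4% (54.3% to 71.9%) of positive and 43.1% (38.0% to 48.3%) of matched negative barcodes had 3 or more G2/M UMIs. With 3 or more S-phase UMIs they were 39.0% (30.3% to 48.2%) and 29.3% (24.7% to 34.2%), with intervals that overlap. Without thinning, the G2/M list took a median of 0.299% of UMIs per positive and 0.204% per matched negative barcode, and the S-phase list 0.165% and 0.125%. These lists count transcripts, and no cycling state was called. Against barcodes matched to the 33 members with 2 or more CDH11 UMIs, the G2/M median was 0.07.

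**Figure D4:**
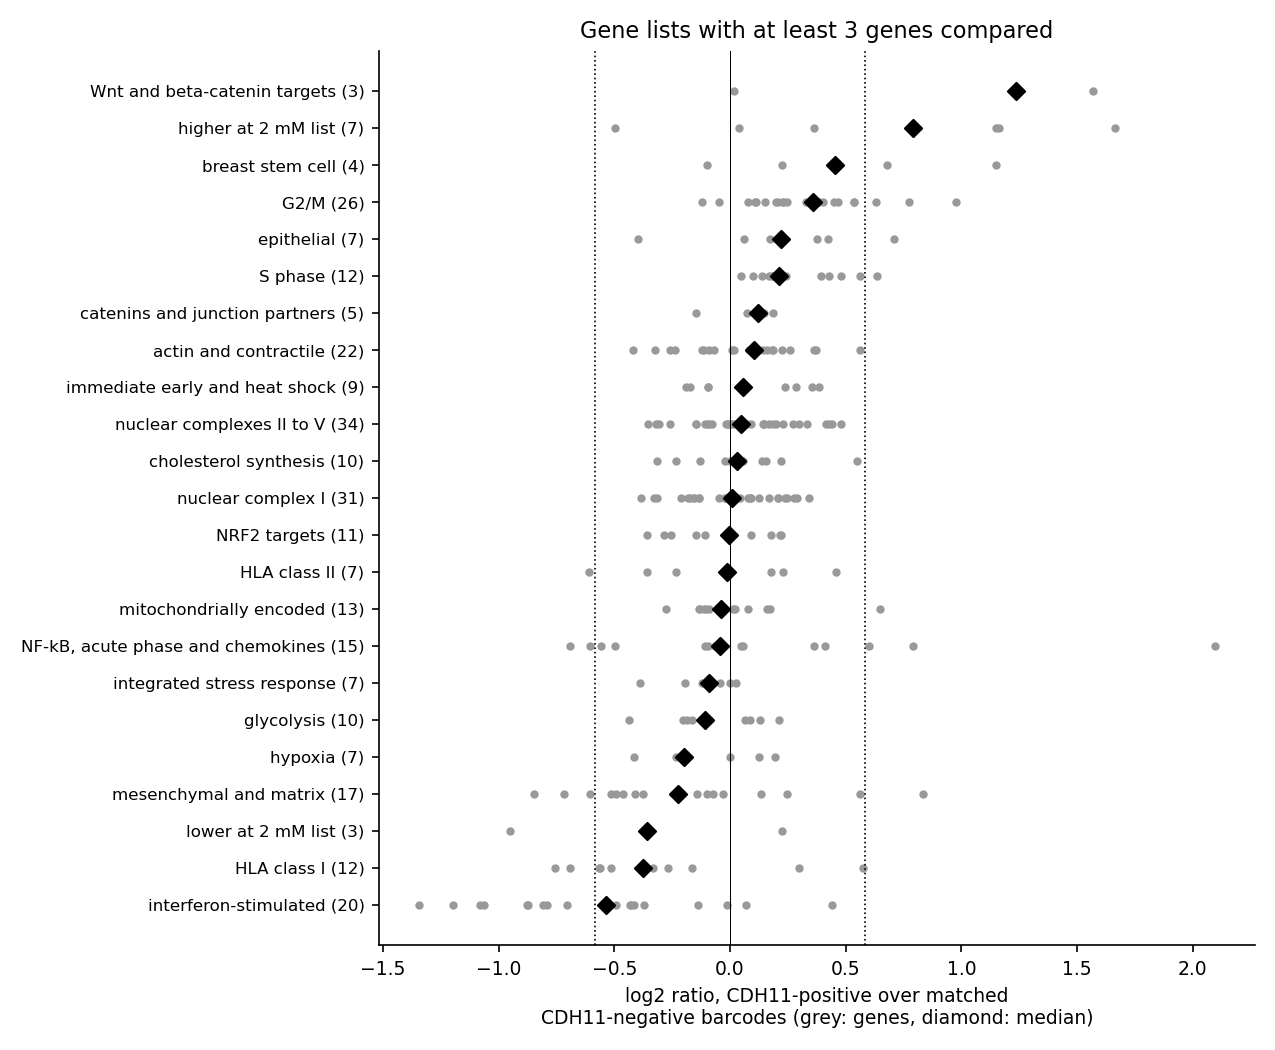
Log2 ratio of CDH11-positive over matched CDH11-negative 2 mM barcodes for the genes (grey) and the median (black diamond) of each gene list with at least 3 genes compared, numbers of genes in brackets, dotted lines at 1.5-fold. The interferon-stimulated list lies lowest at -0.54, HLA class I at -0.38 and G2/M at 0.36; the list at the top has 3 genes.

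Most compared genes of the mesenchymal and matrix list had ratios below 1. The markers of the line given above that could be compared differed little, with VIM at 0.951, CD44 at 0.933 and FN1 at 1.19. Of 17 mesenchymal and matrix genes, 13 had ratios below 1, 1 was at least 1.5-fold higher and 3 lower, against 3.29% and 3.34% of all genes, with a median of -0.22. S100A4, a calcium-binding protein gene known from metastatic cells, had 1241 CPM in positive and 2235 CPM in matched negative barcodes, a ratio of 0.555 (0.514 to 0.600). TIMP1, an inhibitor of matrix metalloproteinases, had 1820 and 2996 CPM (0.608), and LAMB3, a laminin chain gene, 178 and 271 CPM (0.657). THBS1, above, and the tropomyosin gene TPM1 (281 and 190 CPM, ratio 1.48) were the highest. None of the 7 detected transcription factors of the epithelial to mesenchymal transition reached the minimum.

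Of 7 epithelial genes 6 had ratios above 1 (median 0.22). KRT19, a keratin of simple epithelia, had 425 CPM in positive, 260 CPM in matched negative and 219 CPM in 0 mM barcodes, a ratio of 1.63 (1.40 to 1.91), and was found in 74.0% and 50.9% of barcodes. The desmosome gene DSP had 278 and 207 CPM (1.34), KRT7 303 and 234 CPM (1.30) and KRT18 481 and 461 CPM (1.04). The integrin gene ITGA6, on the breast stem cell list, had 432, 269 and 159 CPM, a ratio of 1.60 (1.38 to 1.86). Next to SOX4 on that list, ITGB1 lay at 1.17 and CD44 at 0.933.

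CDH11 is known from osteoblasts, and its tail binds beta-catenin, so genes of bone and of Wnt signalling were listed too. Of 17 Wnt target genes 3 could be compared, with DKK1 and MYC as above and CCND1 at 470 and 464 CPM. Of 17 bone-related genes 2 could be compared. TNFRSF11B, which encodes the decoy receptor osteoprotegerin, had 71.4 CPM in positive and 159 CPM in matched negative barcodes, a ratio of 0.450 (0.321 to 0.618). BMP4 had 224 and 248 CPM. ID1, a target of BMP signalling, had 66.6, 129 and 413 CPM in positive, matched negative and 0 mM barcodes, a ratio of 0.517 (0.363 to 0.721).

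Genes that differ between the 2 doses were split by CDH11. The list was taken from an earlier comparison of these same libraries and is not independent of them. Of 7 genes known to be higher at 2 mM that could be compared, DEFB1, CPVL, SOX4 and CXCL1 were at least 1.5-fold higher in CDH11-positive barcodes, against the 3.29% of all genes. CXCL1 was under 1.5-fold without its richest barcode, as given above, and at 0.33 with barcodes weighted equally and 0.43 without the deepest 5% (log2 ratios). LCN2, an iron-siderophore binder gene, was not, with 140 CPM in positive, 197 CPM in matched negative and 23.2 CPM in 0 mM barcodes (ratio 0.708). GCHFR, a regulator of tetrahydrobiopterin synthesis, had 124, 120 and 31.9 CPM, and SAA2, an acute phase gene, 1169.5, 909 and 304 CPM. For GCHFR the CDH11-negative 2 mM barcodes were thus as far from 0 mM as the positive ones. Of the genes lower at 2 mM, NQO1, which encodes a quinone reductase, had 392, 502 and 1028 CPM, and ACTB 446, 381 and 939 CPM. Below the minimum for comparison, ID3 had 14.3, 25.2 and 181 CPM, with a ratio of 0.566 (0.243 to 1.18). LAPTM5, a lysosomal membrane gene also below it, had 2 and 47 UMIs in positive and matched negative barcodes. The other genes of this list below the minimum went both ways. Their ratios were EBI3 0.295, ESAM 0.503, C4BPB 0.733, ZNF114 0.966, CA12 1.02, TCEA3 1.35 and FOS 1.41. Of the genes higher at 2 mM, those below the minimum were GPR116 (0.817), CD81 (0.864), PDZK1IP1 (0.985) and HLA-DRB5 (1.22). SAA2 and ACTB have close copies in the genome, so their counts are uncertain.

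Gene by gene, energy metabolism, the known field of action of metformin, differed little with CDH11. All 31 nuclear complex I genes (median 0.01) and all 34 genes of complexes II to V (median 0.05) lay within 1.5-fold. Of the 13 mitochondrially encoded genes (median -0.04), MT-ND6 had a ratio of 1.57 and MT-CYB one of 0.825. MT-ND6 is encoded on the opposite strand to its neighbours, and whether counting used strand is not given in the sources used here. All 10 glycolysis genes (median -0.11), 7 hypoxia genes (-0.20), 10 cholesterol synthesis genes (0.03), 7 genes of the integrated stress response (-0.09), 11 NRF2 targets (0.00), 9 immediate early and heat shock genes (0.06) and 22 actin and contractile genes (0.10) lay within 1.5-fold. Among these the glycolytic kinase gene PGK1 lay at 0.740, the hypoxia gene ERO1L at 0.750, the cholesterol synthesis gene DHCR7 at 1.46 and the chaperone gene HSPD1 at 1.31. Summed over its genes, the hypoxia list was lower in positive barcodes, with a ratio of 0.860 (0.796 to 0.929). After thinning to equal depth, 9.76% (5.14% to 16.4%) of positive barcodes had 3 or more hypoxia UMIs. For matched negative barcodes the share was 22.8% (18.6% to 27.4%). A further 28 positive and 80 matched negative barcodes had exactly 2 hypoxia UMIs, so these shares depend on the cutoff. Their intervals cover counting error over cells of 1 library. Without thinning, the list took a median of 0.124% of UMIs per positive and 0.142% per matched negative barcode. The nuclear-retained RNA MALAT1 had a ratio of 1.24 and NEAT1 one of 0.924.

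Seen from the other side, the 800 barcodes at 2 mM were put in 4 equal classes by the share of their UMIs that a list took. By the HLA class I list, CDH11 had 90.8 CPM (71.9 to 113) in the class with the lowest share, then 49.7 and 56.0 CPM, and 15.3 CPM (7.64 to 27.4) in the class with the highest. The shares of barcodes with CDH11 were 25%, 15%, 16.5% and 5%, at median depths between 2932 and 3236 UMIs. By the interferon list CDH11 had 59.7, 81.1, 50.8 and 27.5 CPM from the lowest to the highest class. By the G2/M list it had 32.7, 44.0, 72.1 and 64.4 CPM, and by the S-phase list 42.7, 43.9, 65.6 and 64.3 CPM. By the list of genes higher at 2 mM it had 28.6, 45.3, 60.4 and 87.1 CPM. By the hypoxia list it had 53.0, 72.7, 54.8 and 33.3 CPM, and the NF-kB list gave 46.1, 58.5, 73.8 and 42.1 CPM with no order. CDH11 transcripts were present in all 4 classes of every one of these lists, so none of them held all CDH11-positive cells.

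**Figure D5:**
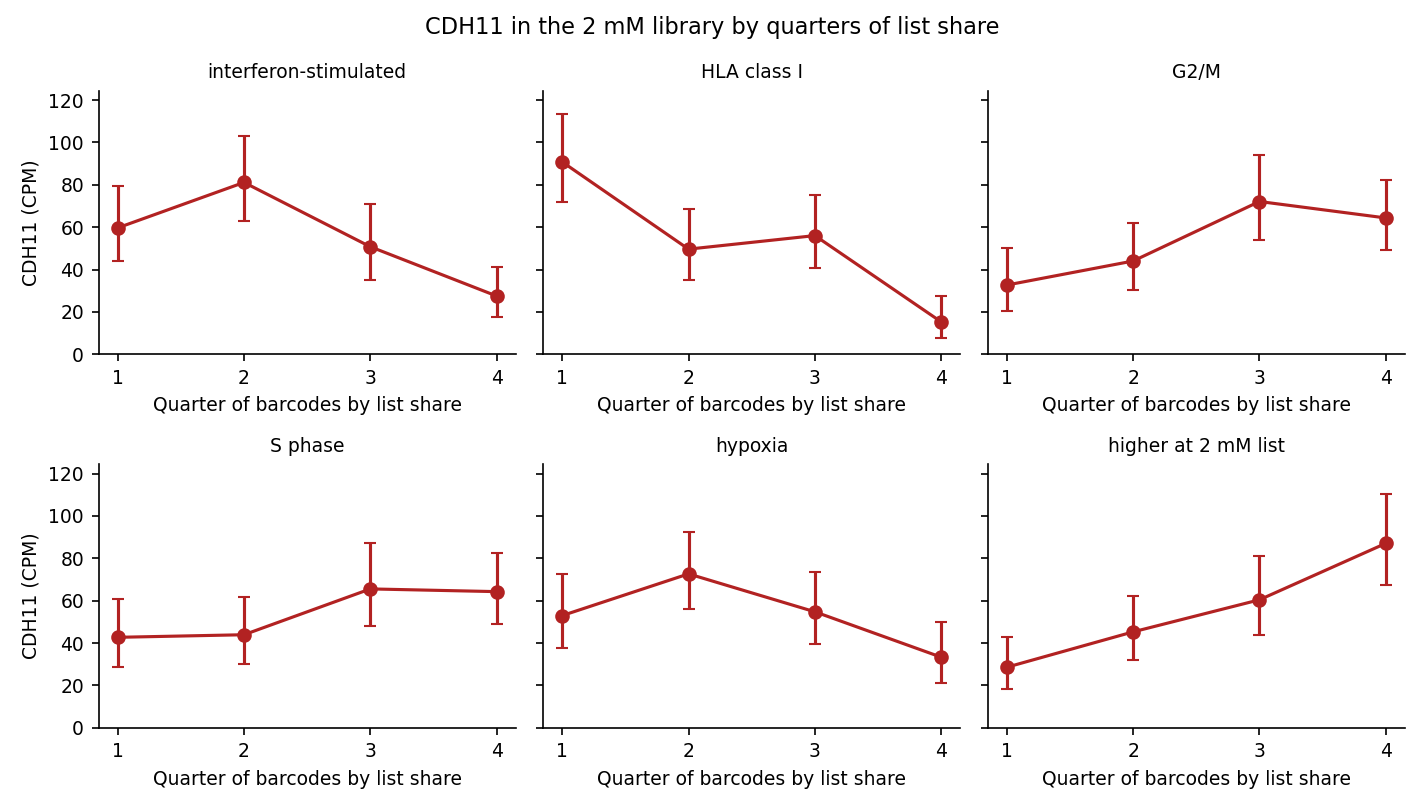
CDH11 level (CPM, 95% exact Poisson intervals) in 2 mM barcodes put in 4 classes of 200 by the share of UMIs that each list takes, from the lowest (1) to the highest (4). CDH11 is at 90.8 CPM in the first and 15.3 CPM in the last class of HLA class I share and lies between 28.6 and 87.1 CPM along the list of genes higher at 2 mM.

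Interferon transcripts, a share that varied widely between barcodes, were lower in CDH11-positive barcodes. The comparison was therefore repeated in barcodes at or under the 2 mM median share of 0.428%. This was decided after the values were seen. It left 78 positive and 234 matched negative barcodes with medians of 4455.5 and 3844 UMIs. Of the 72 higher genes 40 (55.6%) and of the 73 lower genes 23 (31.5%) passed 1.5-fold again, out of 85 and 73 in these barcodes. The 78 positive barcodes are part of the set on which the highest and lowest genes were picked. Genes that stayed past 1.5-fold here are therefore no separate support. All 12 highest genes stayed at least 1.5-fold higher, at log2 ratios of 0.64 to 1.88. Of the 11 lowest genes with a value, 7 kept their direction. SRGN (-1.54), NOV (-1.86), EMP1 (-1.28), PTX3 (-1.04) and IGFBP7 (-0.96) stayed at least 1.5-fold lower. DDX60 lay at -1.12 on few UMIs, with an interval of -4.34 to 1.07 that includes 0. CCL5, IFIT3, IFIH1 and CXCL11 lay above 0 with intervals that include 0, and so did BIRC3 and LAMB3. The HLA class I median was -0.48 and the G2/M median 0.35, against 0.17 for the interferon list that defined the choice. The S-phase median was 0.10 (-0.10 to 0.32) and the mesenchymal and matrix median -0.20 (-0.46 to 0.08), both with intervals that include 0. Also under 1.5-fold here were IGFBP6 (-0.37), TIMP1 (-0.41), SOD2 (-0.26), CLSPN (0.36), NUF2 (0.57), IL32 (0.31) and ITGA6 (0.54).

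The 8 CDH11-positive barcodes of the 0 mM library are given by count. DEFB1 had 3 UMIs in 2 of the 8 and 9 UMIs in 5 of the 936 other barcodes, so 2 of 7 barcodes with DEFB1 at 0 mM also carried CDH11. CPVL was in 3 of the 8 and in 6.73% of the others, TNC in 3 and 14.0%, THBS1 in 7 and 31.5%, and SOX4 in 1 and 3.95%. CCL2 and TFCP2L1 had 0 UMIs in the 8. On the lower side, IFIT3 was in 3 of the 8 and 53.3% of the others, PTX3 in 3 and 41.2%, and SRGN in 6 and 55.9%. Of the 8, 7 lay at or under the 0 mM median share of interferon transcripts, 0.565%. The 8 were deeper than most barcodes of their library, whose median was 3665 UMIs, and were not matched, so these shares are not on one depth.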

How the data were processed

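Single-cell RNA libraries came from 2 mM and 0 mM metformin mammospheres of MDA-MB-231. Per the labels' protocols, mammospheres were taken apart with trypsin and EDTA, cDNA was amplified on beads and libraries were made with Nextera XT. The authors deposited whole UMI counts of 19826 genes in 2000 barcodes, not normalized. bcl2fastq, STAR 2.5.0a and hg19 are named per the submitters' processing notes. Neither the choice of barcodes, the collapsing of UMIs, the annotation nor any strand setting is given in the sources used here, so counts of overlapping or near-identical genes are uncertain.

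Barcodes with at least 1000 UMIs were kept, and no doublet caller was run. Kept barcodes held 3118941 UMIs at 2 mM (median 3082 per barcode) and 4351972 at 0 mM (median 3665). Each CDH11-positive 2 mM barcode was matched to the 3 CDH11-negative ones nearest in UMIs, without reuse. Counts were summed per group, CDH11 left out of totals, and scaled to CPM. Genes with at least 100 CPM in either group and 100 UMIs over both were compared. Ratios have exact conditional Clopper-Pearson intervals, levels exact Poisson and shares exact binomial intervals, all at 95% and for counting error only. A count of 0 allows up to 3 counts. With 1 library per dose there were no tests and no p-values, and higher or lower means a ratio of at least 1.5 either way. Thinning drew 1000 UMIs per barcode.

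The members and the 31 gene lists were chosen with earlier results of these data known. Named genes were the 12 highest and 12 lowest by the interval bound nearest 1 (without mitochondrially encoded and ribosomal protein genes), up to 3 members at each end of each list, and all cadherins, catenins, dose-list genes and cell type markers. Not every gene under this rule is described here. Promoters came from RefSeq (GRCh38.p14), matched by symbol, which held 17 of the 24 highest and lowest genes; CDH11 itself was not matched. Files and promoters are of different builds, so no gene coordinates from the files are given. The ratio computation was tested on simulated sums drawn as independent counts. These leave out the spread between cells, so the test does not cover it. Python 3.11.15, numpy 2.4.6, pandas 2.3.3, scipy 1.17.1 and, for TMM factors, edgeR 4.0.16 in R 4.3.3 were used.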

Additional observations from a re-analysis of the deposited data

Results flagged for a closer look

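CDH11 was also seen below the minimum of 1000 UMIs, in barcodes that the main comparison left out. Only the alternative with a minimum of 500 UMIs used them, with 133 positive and 399 matched negative barcodes. In 2 mM barcodes of 500 to under 1000 UMIs it had 11 UMIs in 10 of 194 barcodes, a level of 74.7 CPM (37.3 to 134). In 0 mM barcodes of the same depth it had 0 UMIs in 56 barcodes, which allows a share of up to 5.36% and a level of up to 58.7 CPM. The 2 mM interval includes that limit, so a difference between doses was not detectable at this depth.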

How the results depend on the processing

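The share of 2 mM barcodes with CDH11 was 4.13% when 2 or more CDH11 UMIs were asked for, and after thinning to 1000 UMIs the shares were 4.63% at 2 mM and 0.106% at 0 mM. The numbers of genes past 1.5-fold depended on the genes and barcodes compared. Lower genes numbered 126 for members with 2 or more CDH11 UMIs, 113 with barcodes weighted equally and 125 without the deepest 5% of barcodes. At 50 CPM and 50 UMIs, 181 genes were higher and 204 lower, and with no CPM minimum and 20 UMIs, 835 and 1076. Which genes passed also changed: for members with 2 or more CDH11 UMIs, 16 of the 72 higher and 40 of the 73 lower genes passed again, which is 16 of 74 and 40 of 126 in that setting. With 1 matched barcode per member 53 of 72 and 54 of 73 passed again, with barcodes 1 base apart merged 61 and 61. All 12 highest genes kept their direction in each alternative except DKK1, at a log2 ratio of -0.60 for members with 2 or more CDH11 UMIs. The alternatives use largely the same barcodes on which these genes were picked, so this is no separate support for them. Of 43 named genes past 1.5-fold, 20 stayed past it in every alternative with a value, and 23 were under it in at least 1. Without the deepest 5% of barcodes these were CKB (0.58), DKK1 (0.39), S100A2 (0.39), CLSPN (0.46), CXCL1 (0.43), IL32 (0.19), BIRC3 (-0.42) and HLA-DRB1 (-0.56). Without the barcode richest in the gene they were S100A2 (0.43), CLSPN (0.32), NUF2 (0.56), IL32 (0.26), CXCL1 (0.45), BIRC3 (-0.55) and MT-ND6 (0.57). With 1 matched barcode they were ANKRD1 (0.39), CCNB2 (0.44), SOD2 (-0.46), BIRC3 (-0.36) and IFNL1, and 8 genes were under it for members with 2 or more CDH11 UMIs, 4 with barcodes weighted equally and 13 at a low interferon share. Of the lowest genes, IFNL1 was at 0.85 with 1 matched barcode. In barcodes with a low interferon share, an alternative added after seeing the data, values above 0 were found for CCL5 (0.82), IFIT3 (0.37), IFIH1 (0.10), CXCL11 (1.02), LAMB3 (0.082), BIRC3 (0.17) and ESAM (0.75). The intervals of all these values include 0. ESAM was below the minimum, with 2 UMIs in positive and 11 in matched negative barcodes of the main comparison. That alternative selects barcodes by interferon genes, and the cause of the other reversals was not tested. Over all alternatives, 1870 values of named genes stayed inside the counting interval given with the reported value, 187 left it, and 9 reversed. No paired analysis was possible because each dose had 1 library and no result comes from a test. Depth limits the CDH11 label, since in a barcode of median depth, 1 UMI decides it.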
